A study of Homo sapiens with 2 samples.

Results

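The Frizzled genes encode the cell-surface receptors for Wnt proteins, and all 10 human members, FZD1 to FZD10, were taken by symbol from the 58735 genes listed in each table. A Frizzled protein binds Wnt through a cysteine-rich domain outside the cell, crosses the membrane several times and recruits Dishevelled on the inside. Together with the co-receptors LRP5 and LRP6 it steers beta-catenin, and with other partners such as ROR proteins it acts on cell polarity and movement. In breast cancer cells the family is known as the entry point of Wnt signalling, and members differ in which Wnt proteins and partners they take.

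The cells were BT549, a triple-negative breast cancer line with mesenchymal features. The shSIK2 library came from BT549 cells in which a hairpin RNA lowers SIK2 (a kinase of the salt-inducible family), and the scrambled library from BT549 cells carrying a control hairpin. Both cultures had received Wnt3a, for 2 h, so no library shows the Frizzled genes without added ligand. Each group was 1 library of RNA sequencing. The sources used here do not say whether the hairpin lines were pools or single clones. The series is about SIK2, the phosphorylation of LRP6 and stemness, and the comparison asks how lower SIK2 goes with transcript levels in Wnt3a-treated cells.

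The values are FPKM, reads per gene scaled for gene length, from which the reads behind each value could be recovered. Recovered reads totalled 16347399 in the shSIK2 library and 18019225 in the scrambled library. SIK2 stood at 3.56 FPKM in the shSIK2 library and 7.80 FPKM in the scrambled library, 2.19-fold lower (95% counting interval 1.99 to 2.42). Folds are of reads as deposited, unless equal totals are named, which scales both libraries to the same number of reads. Folds as deposited thus carry the difference in depth. At equal totals SIK2 had 3.74 FPKM in the shSIK2 library and 7.43 FPKM in the scrambled library, short of 2-fold lower (log2 ratio -0.97). The mesenchymal markers were all measured. VIM had 283 and 260 FPKM (shSIK2, then scrambled), FN1 9.82 and 12.96 FPKM and CDH11 4.62 and 2.80 FPKM. ERBB2 (HER2) had 6.75 and 4.96 FPKM, while the oestrogen and progesterone receptor genes ESR1 and PGR had at most 6 reads. None of 5 epithelial, 6 endothelial or 5 leukocyte markers reached 1 FPKM in either library, and PECAM1, CDH5, EPCAM and CD3E had 0 reads in both. With 1 library per group there is no test, no p-value and no replicate check. Intervals cover counting error only and leave out differences between cultures and between libraries. They treat reads as independent. Without molecular identifiers a read is not an independent molecule, so even for counting error they can be too narrow. In bulk RNA, fewer cells that express a gene and less RNA per cell cannot be told apart.

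The family is described in groups of relatives that were set by hand. Coding identities are shown here because the groups order the results. Coding identity was 82.6% between FZD2 and FZD7, 82.4% between FZD1 and FZD2, 79.8% between FZD5 and FZD8 and 76.04% between FZD9 and FZD10. FZD3 and FZD6 were 65.98% identical. FZD4 stood furthest from its closest member, FZD9, at 65.7%. FZD10 and FZD1 were nearly as close to FZD4, each at 65.5%. These identities alone therefore do not place FZD4 with FZD9 and FZD10. The longest stretch that any 2 members had in common was 81 bases, shared by FZD1 and FZD2 from codon 319 of FZD2. FZD7 differs from it at 2 bases, in capitals below (GRCh38, plus strand, chr17:44558645-44558725 for FZD2, chr7:91266062-91266142 for FZD1 and chr2:202035631-202035711 for FZD7).
FZD2: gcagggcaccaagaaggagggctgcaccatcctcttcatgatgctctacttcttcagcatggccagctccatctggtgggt
FZD1: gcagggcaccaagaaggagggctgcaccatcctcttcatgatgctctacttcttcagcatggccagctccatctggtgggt
FZD7: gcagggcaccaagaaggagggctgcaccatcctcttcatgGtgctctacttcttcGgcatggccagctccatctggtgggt
A read that lies wholly within this stretch could belong to either FZD1 or FZD2. Reads wholly within the runs that FZD2 shared with FZD7 (69 bases) or FZD5 (52 bases) could likewise belong to either gene. The sources used here do not say how such reads were counted. The longest run that FZD4 shared with any member was 23 bases, and FZD8 shared at most 51.

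Frizzled transcripts differed widely in level, and the order of the lower members was not the same in the 2 libraries. In the shSIK2 library the order of FPKM was FZD6, FZD2, FZD8, FZD7, FZD1, FZD9, FZD3, FZD4, FZD5 and FZD10. In the scrambled library it was FZD6, FZD2, FZD8, FZD4, FZD7, FZD1, FZD3, FZD9, FZD5 and FZD10. In the shSIK2 library the neighbours FZD9 and FZD3 (ratio 1.35, 0.994 to 1.80) and FZD3 and FZD4 (1.06, 0.856 to 1.32) did not differ beyond counting error. In the scrambled library the same held for FZD6 and FZD2 (1.07, 0.973 to 1.17), FZD8 and FZD4 (1.03, 0.910 to 1.15) and FZD3 and FZD9 (1.38, 0.918 to 2.17). All other neighbours in either order differed beyond counting error. FZD4 thus shared the third place with FZD8 in the scrambled library and lay in eighth place, level with FZD3, in the shSIK2 library.

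**Figure D1:**
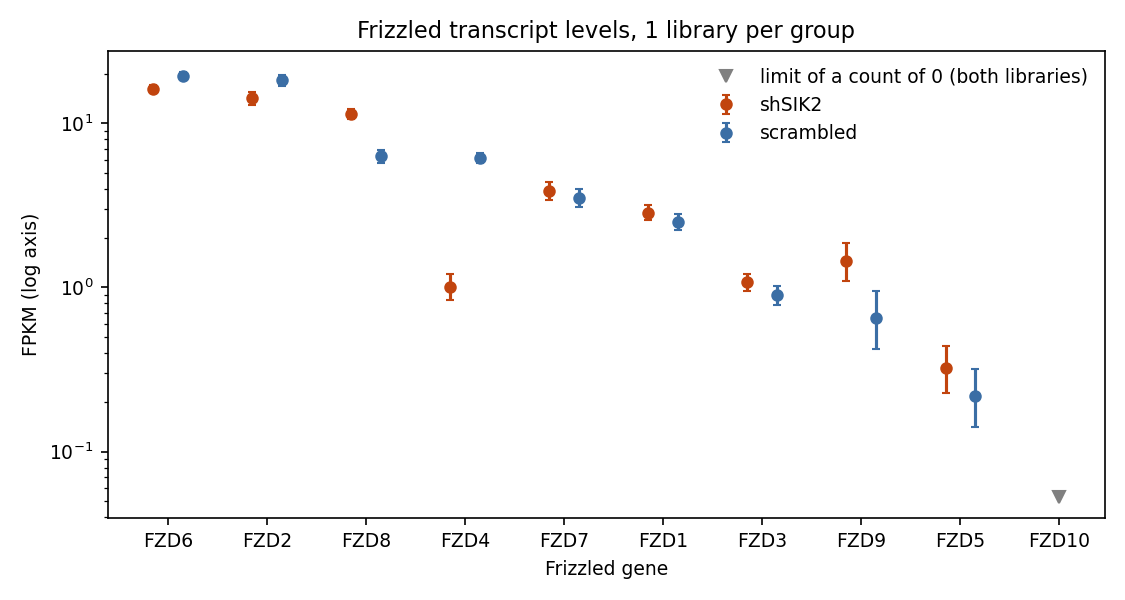
Level of each Frizzled gene in FPKM on a log axis, with exact 95% Poisson counting intervals for genes with reads and a triangle at the limit of 3 reads for FZD10, in the shSIK2 and the scrambled library. FZD4 is the member with the widest gap, at 1.01 FPKM in the shSIK2 library and 6.15 FPKM in the scrambled library, and FZD10 had no reads in either.

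Of the 10 members, 8 were measured, meaning at least 1 FPKM in the higher library. FZD5 stayed below that minimum and FZD10 had no reads. On the log2 scale of FPKM plus 0.1, FZD9 was past 2-fold higher in the shSIK2 library (1 of 8 measured members), FZD4 past 2-fold lower (1 of 8), and 6 lay between. Over all 12866 measured genes, 11.0% were at least 2-fold higher and 8.28% at least 2-fold lower, 19.3% in either direction. The members' share of 25% therefore rests on 2 genes beside a background of similar size. The median log2 ratio of the measured members was 0.16, beside -0.11 over all measured genes. By reads as deposited, not scaled to depth, 6 of the 10 members had more in the shSIK2 library and 3 had fewer. Among the 6, the counting intervals of FZD1, FZD3, FZD5 and FZD7 included 1, and at equal totals that of FZD5 alone did. Over all measured genes, 44.1% had at least as many reads in the shSIK2 library as in the scrambled library, and 56.4% at most as many. The measured genes leave out FZD5, 1 of the 6, and FZD10.

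FZD4 was the 1 member counted as lower under each of the 7 other settings run, whereas the place of FZD9 depended on the setting. At equal totals 1 member was higher (13.4% of all genes higher, 6.04% lower), and with a pseudocount of 0.01 likewise 1 (11.5% and 8.68%). Without a minimum level 1 was higher (16.0% and 10.5% of genes). With a pseudocount of 1 none was higher (5.91% and 4.83% of genes), nor with trends in GC content and exon length removed (9.15% and 8.54%). At a minimum of 5 FPKM none was higher (5.61% and 7.19%), because FZD9 lies below it. At 1.5-fold FZD8 and FZD9 were higher and FZD4 lower (19.7% and 21.3% of genes).

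FZD4 showed the largest difference of the family. FZD4, the receptor for Norrin in retinal blood vessels as well as for Wnt proteins (ENSG00000174804, GENCODE release 29, GRCh38 chr11:86945679-86955391, minus strand, 2 exons), had 128 reads in the shSIK2 library and 779 in the scrambled library. It was 6.09-fold lower in the shSIK2 library (5.04 to 7.40). Its log2 ratio was -2.49, and 175 of the measured genes (1.36%) were at least that low. With both libraries scaled to equal totals the ratio was -2.36, and with trends in GC content and exon length removed it was -2.35. FZD4 thus stayed beyond 2-fold lower under each of these settings.

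The annotation places a second gene across FZD4. PRSS23, a serine protease gene on the opposite strand, shares 1399 exonic bases with FZD4, 18.9% of the exon length of FZD4. PRSS23 had 847 reads in the shSIK2 library and 1277 in the scrambled library, a 1.51-fold lower level (1.38 to 1.65). The sources used here do not say whether the libraries kept strand, so reads of the shared bases cannot be assigned to one of both genes. Among the 5 nearest measured protein-coding genes on each side of FZD4, all 10 had a higher ratio than FZD4. Their median log2 ratio was -0.27 and their range -1.56 to 0.75. The lowest was CTSC, which encodes the lysosomal protease cathepsin C, with 1697 reads in the shSIK2 library and 5053 in the scrambled library. TMEM135, the nearest on the side away from PRSS23, had 465 reads in the shSIK2 library and 430 in the scrambled library. SMCO4, the farthest of the 10, lay 6523081 bases from FZD4.

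**Figure D2:**
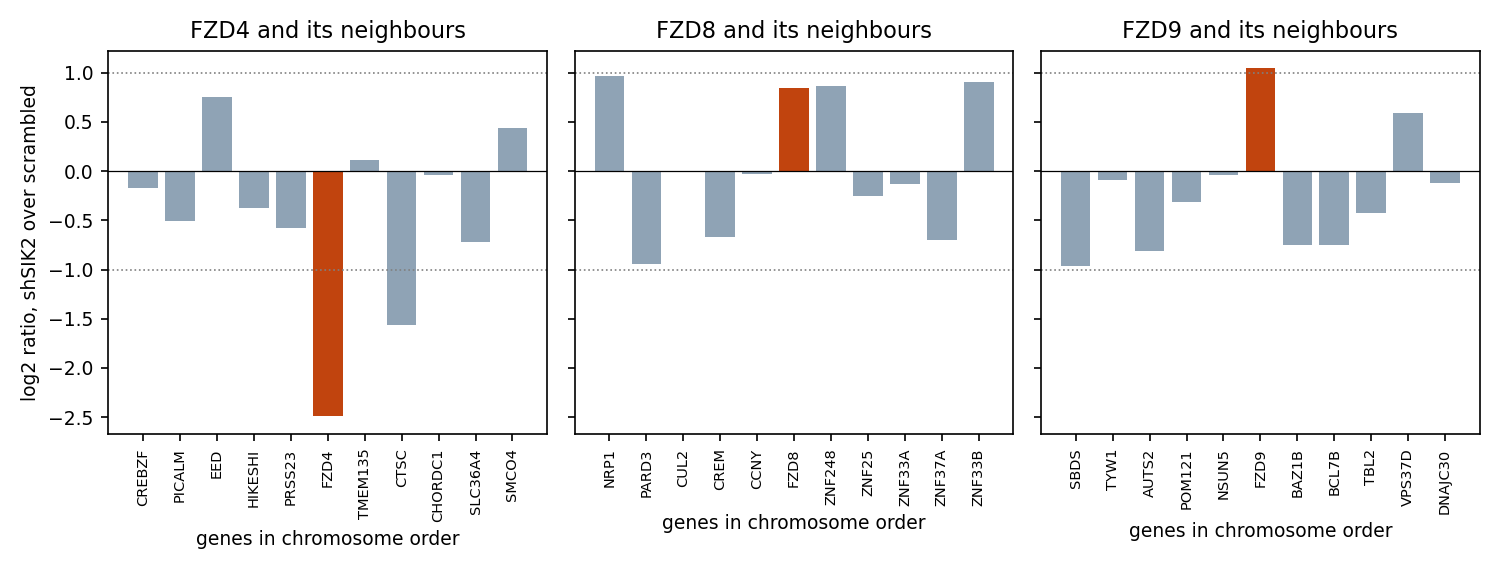
Log2 ratios of shSIK2 over scrambled for FZD4, FZD8 and FZD9 (red) and for the 5 nearest measured protein-coding genes on each side (grey), in chromosome order, with dotted lines at 2-fold. FZD4 lies below all 10 of its neighbours, FZD9 above all 10, and FZD8 above 7 of 10. The counting interval of FZD9 (0.47 to 1.88) covers the ratio of its neighbour VPS37D (0.59).

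FZD8 and FZD5 form the pair best known as receptors of beta-catenin-dependent Wnt signalling. FZD8 (ENSG00000177283, chr10:35638249-35642278, minus strand, 1 exon) had 787 reads in the shSIK2 library and 436 in the scrambled library, or 11.4 and 6.30 FPKM. It was 1.81-fold higher in the shSIK2 library (1.60 to 2.03), short of the 2-fold rule as deposited (log2 ratio 0.84) and at equal totals (0.98). FZD5 (ENSG00000163251, chr2:207762586-207769563) had 37 reads in the shSIK2 library and 25 in the scrambled library, or 0.321 and 0.217 FPKM. The interval of its ratio included 1 (1.48-fold, 0.867 to 2.56), also at equal totals (1.63-fold, 0.956 to 2.83), so no difference of FZD5 was detectable at this depth.

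FZD9 lies in the chromosome 7 region that is deleted in Williams-Beuren syndrome (ENSG00000188763, chr7:73433783-73436120, 1 exon). It had 58 reads in the shSIK2 library and 26 in the scrambled library, or 1.45 and 0.648 FPKM. The fold was 2.23 (1.38 to 3.69), and the log2 ratio of 1.05 passed the 2-fold rule by a narrow margin. FZD10, its closest relative (chr12:130162459-130165740), had 0 reads in both libraries, which allows up to 0.0533 FPKM for 3 reads.

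FZD1, FZD2 and FZD7 form the group of closest relatives, with roles in both beta-catenin-dependent and other Wnt signalling. FZD2 (ENSG00000180340, chr17:44557459-44559570, 1 exon) had 515 reads in the shSIK2 library and 661 in the scrambled library, or 14.2 and 18.2 FPKM. It was 1.28-fold lower in the shSIK2 library (1.14 to 1.44), and 1.16-fold lower at equal totals (1.04 to 1.31). FZD7 (ENSG00000155760, chr2:202034587-202038445, 1 exon) had 257 reads in the shSIK2 library and 233 in the scrambled library, or 3.88 and 3.52 FPKM. FZD1 (ENSG00000157240, chr7:91264364-91271326, 1 exon) had 342 and 300 reads, in the same order of libraries, or 2.86 and 2.51 FPKM. The intervals of FZD7 (1.10-fold, 0.920 to 1.32) and FZD1 (1.14-fold, 0.973 to 1.34) both included 1. At equal totals neither did, with FZD7 1.22-fold higher (1.01 to 1.46) and FZD1 1.26-fold higher (1.07 to 1.47), so for both the scaling decides. Only the folds at equal totals take the difference in depth between the libraries into account. The FZD2 model of the annotation covers 2112 bases, against 3779 for the gene in RefSeq, so reads from the rest of that gene would not have been counted.

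FZD3 and FZD6 are known in mice for axon growth and for the orientation of hair, the latter a form of planar cell polarity. FZD6 (ENSG00000164930, chr8:103298433-103332866, up to 8 exons) had the highest level of the family in both libraries. It had 1132 reads in the shSIK2 library and 1359 in the scrambled library, or 16.2 and 19.5 FPKM, 1.20-fold lower (1.11 to 1.30). At equal totals it was 1.09-fold lower (1.01 to 1.18), with a log2 ratio of -0.12, beside -0.26 as deposited. FZD3 (ENSG00000104290, chr8:28494205-28574268, up to 8 exons) had 254 and 212 reads, in the same order of libraries, or 1.07 and 0.896 FPKM. Its interval included 1 (1.20-fold, 0.994 to 1.44), but not at equal totals, where FZD3 was 1.32-fold higher (1.10 to 1.59).

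GC content moved with several of these ratios. Across all measured genes the log2 ratio followed the GC content of the transcript (Spearman rho 0.28, over genes of 1 pair of libraries). FZD9, FZD2 and FZD8 had 68.4%, 64.9% and 64.6% GC and lay in the same twentieth of genes by GC content, whose median log2 ratio was 0.49. Within it FZD8 (0.84) and FZD9 (1.05) lay above that median and FZD2 (-0.36) below it. With trends in GC content and exon length removed, the log2 ratios were 0.43 for FZD9, 0.23 for FZD8 and -0.98 for FZD2. FZD6, with 38.4% GC, stood at -0.05 on that scale. The part of GC content in these differences was not tested.

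**Figure D3:**
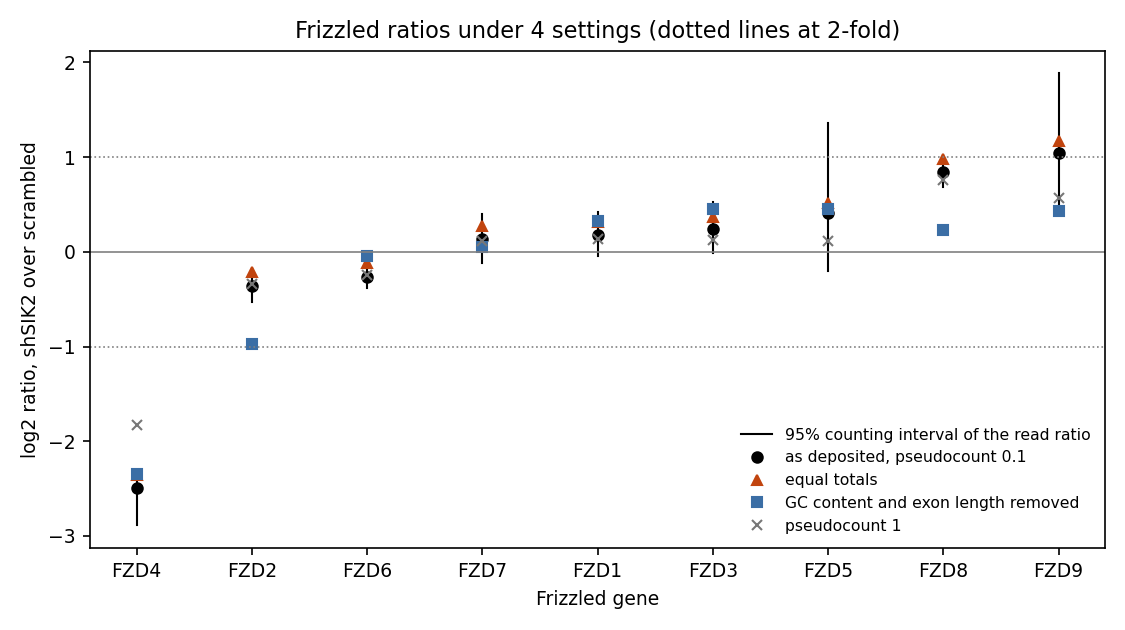
Log2 ratios of shSIK2 over scrambled for the 9 Frizzled genes with reads, as deposited with a pseudocount of 0.1, at equal totals, with trends in GC content and exon length removed, and with a pseudocount of 1; vertical lines are 95% counting intervals of the read ratio and dotted lines mark 2-fold. FZD4 lies beyond 2-fold lower under all 4, whereas FZD9 passes 2-fold higher as deposited and at equal totals only.

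Added over the family, Frizzled transcripts were nearly as abundant in one library as in the other. The sum was 52.4 FPKM in the shSIK2 library and 57.95 FPKM in the scrambled library. The reads were 3510 and 4031, 1.15-fold lower in the shSIK2 library (1.10 to 1.20). At equal totals the sums were 55.02 and 55.2 FPKM, and the interval of the ratio of reads included 1 (1.04-fold lower, 0.996 to 1.09). The make-up of the sum differed more than its size. FZD8 held 21.7% of the summed FPKM in the shSIK2 library (20.4% to 23.1%) and 10.9% in the scrambled library (9.94% to 11.9%). FZD4 held 1.93% in the shSIK2 library (1.62% to 2.29%) and 10.6% in the scrambled library (9.88% to 11.4%). In FPKM as deposited, the 2 most abundant members differed less. FZD6 held 31.0% in the shSIK2 library (29.4% to 32.6%) and 33.6% in the scrambled library (32.1% to 35.2%). FZD2 held 27.1% in the shSIK2 library (25.3% to 29.01%) and 31.5% in the scrambled library (29.7% to 33.3%). Shares were not recomputed with trends in GC content and exon length removed. That setting moved the log2 ratio of FZD8 from 0.84 to 0.23 and of FZD2 from -0.36 to -0.98.

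By group of relatives, FZD1, FZD2 and FZD7 together made up 39.98% of the sum in the shSIK2 library and 41.9% in the scrambled library. FZD3 and FZD6 made up 33.01% in the shSIK2 library and 35.2% in the scrambled library. The counting intervals of both groups overlapped between the libraries. FZD5 and FZD8 made up 22.3% in the shSIK2 library (20.96% to 23.7%) and 11.3% in the scrambled library (10.3% to 12.3%). FZD4, FZD9 and FZD10 made up 4.69% in the shSIK2 library (3.98% to 5.51%) and 11.7% in the scrambled library (10.9% to 12.6%). Within that group FZD4 and FZD9 went opposite ways. FZD4 held 1.93% in the shSIK2 library and 10.6% in the scrambled library, and FZD9 held 2.76% and 1.12%. Shares set transcripts side by side and say nothing of receptor protein at the surface.

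**Figure D4:**
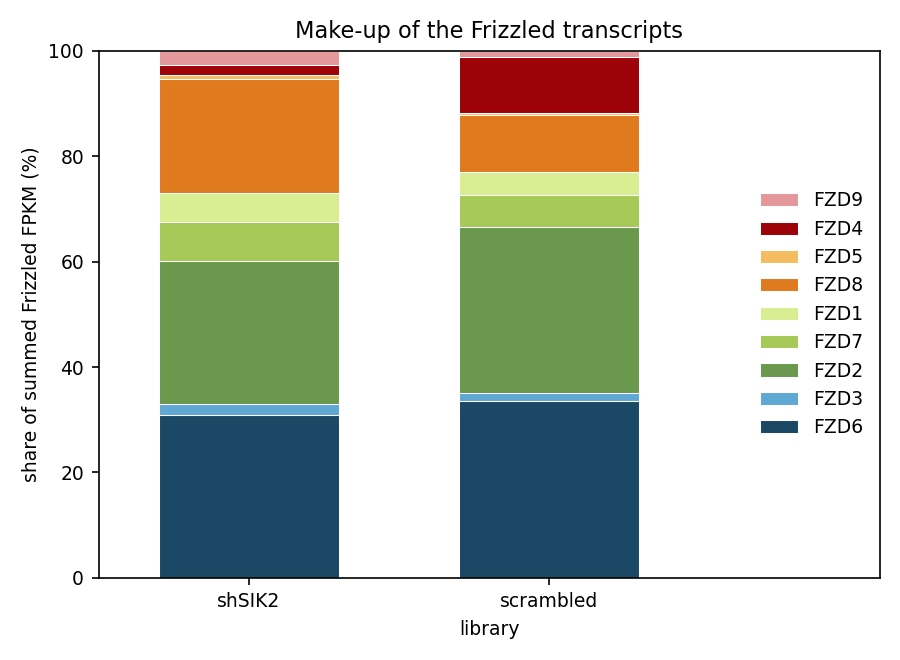
Share of each Frizzled gene in the summed Frizzled FPKM of the shSIK2 library and of the scrambled library, stacked to 100%; FZD10 had no reads. FZD8 takes 21.7% against 10.9% and FZD4 1.93% against 10.6%, while FZD6 and FZD2 stay the 2 largest parts in both. Shares are of FPKM as deposited, with no trend in GC content or exon length removed.

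Promoters are shown for FZD4, FZD8 and FZD9, the members with the largest ratios in either direction, which RefSeq covers in the tables used here (5 of the 10 members). Each is the 250 bases before the RefSeq start on its own strand, GRCh38.p14, at chr11:86955396-86955645 (minus) for FZD4, chr10:35642297-35642546 (minus) for FZD8 and chr7:73433528-73433777 (plus) for FZD9. Capitals mark 3 motifs on either strand, and overlapping copies run together. The first is the GC box, spelled GGGCGG. The second is the CCAAT box, whose letters are its name. The third is the TATA box, searched as TATAAA.
FZD4: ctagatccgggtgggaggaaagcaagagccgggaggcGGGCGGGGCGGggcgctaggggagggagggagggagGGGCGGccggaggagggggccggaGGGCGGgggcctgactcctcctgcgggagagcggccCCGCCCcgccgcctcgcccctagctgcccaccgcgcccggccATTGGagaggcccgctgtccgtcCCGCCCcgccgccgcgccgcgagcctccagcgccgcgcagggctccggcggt
FZD8: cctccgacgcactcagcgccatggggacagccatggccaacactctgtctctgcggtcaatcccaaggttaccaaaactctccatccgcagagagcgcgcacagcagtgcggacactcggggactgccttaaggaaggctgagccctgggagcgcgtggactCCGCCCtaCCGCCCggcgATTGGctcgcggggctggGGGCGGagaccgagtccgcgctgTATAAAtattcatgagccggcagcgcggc
FZD9: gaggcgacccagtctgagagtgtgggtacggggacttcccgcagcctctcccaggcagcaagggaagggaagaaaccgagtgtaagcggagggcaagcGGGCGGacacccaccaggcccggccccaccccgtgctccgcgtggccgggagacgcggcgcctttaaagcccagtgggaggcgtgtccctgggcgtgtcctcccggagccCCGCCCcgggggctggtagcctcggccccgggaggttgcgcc
The FZD4 window held 6 GC boxes and 1 CCAAT box, the FZD8 window 3 GC boxes, 1 CCAAT box and 1 TATA box, and the FZD9 window 2 GC boxes. A GC box was found in all 5 members searched and in 42.6% of 35116 RefSeq windows of that length. CCAAT was found in 4 of 5 members and in 32.01% of windows, and TATAAA in FZD8 alone among the 5 and in 10.7% of windows. The cAMP response half-site TGACG, contained in the full element TGACGTCA, was in none of the 5 windows and in 21.2% of all windows. The TCF/LEF core CTTTGA was also in none of the 5, and in 11.2% of all. GC content was 80.8% for FZD4, 65.2% for FZD8 and 72.4% for FZD9, beside a median of 58.0% over all windows. A match, or the lack of one, describes these letters only.

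SMO, the one other receptor of the Frizzled class, transduces Hedgehog signals and binds no Wnt. It had 243 reads in the shSIK2 library and 33 in the scrambled library, 7.36-fold higher (5.10 to 10.9), and its log2 ratio of 2.63 exceeded that of every Frizzled gene. With trends in GC content and exon length removed the ratio was 2.20.

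Among the ligands, WNT5A and WNT5B, which mainly serve beta-catenin-independent signalling, were the most abundant. Of 20 genes (19 Wnt genes and NDP, which encodes Norrin), 4 were measured, 0 of them at least 2-fold higher and 1 at least 2-fold lower. WNT5B had 11.4 FPKM in the shSIK2 library and 14.2 FPKM in the scrambled library. WNT5A had 13.0 FPKM (1651 reads) in the shSIK2 library and 10.4 FPKM (1325 reads) in the scrambled library. WNT10B was the lower one, with 42 reads in the shSIK2 library and 96 in the scrambled library, 2.29-fold lower (1.58 to 3.37). The median log2 ratio of the 4 was -0.48. NDP, WNT3A and WNT7A had no reads in either library, and the Wnt3a added to the culture is not seen in RNA.

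Of 10 co-receptors and membrane partners 8 were measured, 1 past 2-fold higher and 1 past 2-fold lower, and their median log2 ratio was 0.77. These 2 were the ROR pair, receptor kinases that bind WNT5A. ROR2 had 126 reads in the shSIK2 library and 5 in the scrambled library, and ROR1 had 27 reads in the shSIK2 library and 155 in the scrambled library. PTK7, a polarity co-receptor and the most abundant of the list, had 13.3 FPKM in the shSIK2 library and 8.21 FPKM in the scrambled library. LRP5 had 1164 reads in the shSIK2 library and 606 in the scrambled library, 1.92-fold higher (1.74 to 2.12). Its log2 ratio was 0.93 as deposited and 0.53 with trends in GC content and exon length removed. LRP6 was 1.06-fold higher (0.973 to 1.15), and 1.17-fold higher at equal totals (1.07 to 1.27), so the scaling decides whether its interval includes 1. RYK, an atypical Wnt receptor, had 7.32 FPKM in the shSIK2 library and 13.8 FPKM in the scrambled library, 1.88-fold lower (1.74 to 2.04). RECK and ADGRA2, which in mice and zebrafish form a WNT7 receptor complex with Frizzled in brain vessels, were 1.83-fold (1.58 to 2.13) and 2.18-fold (1.58 to 3.03) higher in the shSIK2 library. ADGRA2 had 124 reads in the shSIK2 library and 57 in the scrambled library and fell short of the rule with the pseudocount. TSPAN12, which helps FZD4 respond to Norrin, had no reads in either library.

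The genes that set how much Frizzled stays at the surface held no member beyond 2-fold, and 4 of 10 were measured (median -0.42). ZNRF3, a ubiquitin ligase that removes Frizzled from the membrane, had 0.794 FPKM in the shSIK2 library and 1.48 FPKM in the scrambled library, 1.86-fold lower (1.44 to 2.42). Its relative RNF43 had no reads in either. LGR4, a receptor of the R-spondins that hold ZNRF3 off, was the most abundant, at 20.1 FPKM in the shSIK2 library and 18.6 FPKM in the scrambled library.

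Of 16 inhibitors, 5 were measured, 2 past 2-fold higher and 0 past 2-fold lower (median 0.71). SFRP1, a secreted protein with a Frizzled-like Wnt-binding domain, had 36.4 FPKM in the shSIK2 library and 6.74 FPKM in the scrambled library. Its relative SFRP2 lay the other way, at 15.4 FPKM in the shSIK2 library and 22.7 FPKM in the scrambled library. KREMEN2, which pairs with DKK proteins to remove LRP6, had 182 reads in the shSIK2 library and 16 in the scrambled library. DKK1 was 1.65-fold lower (1.37 to 1.99) and DKK3 1.65-fold higher (1.51 to 1.80).

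In the list of Shisa and Wnt secretion genes, 7 of 9 were measured, with a median of -0.05. Shisa of Xenopus frogs holds Frizzled in the endoplasmic reticulum. SHISA2 was the 1 member at least 2-fold lower, at 3.91 FPKM (192 reads) in the shSIK2 library and 27.9 FPKM (1369 reads) in the scrambled library, 7.13-fold (6.13 to 8.34), and 0 were higher. SHISA5, the most abundant, had 47.8 FPKM in the shSIK2 library and 49.5 FPKM in the scrambled library.

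Of 21 cytoplasmic partners 19 were measured, 1 past 2-fold higher and 0 past 2-fold lower (median -0.22). The Dishevelled genes, whose proteins dock on Frizzled, had 37.2 (DVL1), 15.6 (DVL2) and 19.1 (DVL3) FPKM in the shSIK2 library. In the scrambled library they had 33.7 (DVL1), 21.03 (DVL2) and 19.1 (DVL3) FPKM. ARRB1, a beta-arrestin, was the higher one, with 148 reads in the shSIK2 library and 34 in the scrambled library (4.35-fold, 2.98 to 6.52), and its more abundant relative ARRB2 was 1.55-fold lower (1.41 to 1.70). PRKCA, a protein kinase C, had the highest level of the list, 38.3 FPKM in the shSIK2 library and 53.9 FPKM in the scrambled library. Over these lists and SMO together, 48 of 87 genes were measured, 5 (10.4%) at least 2-fold higher and 3 (6.25%) lower, close to the background of all measured genes (11.0% and 8.28%).

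**Figure D5:**
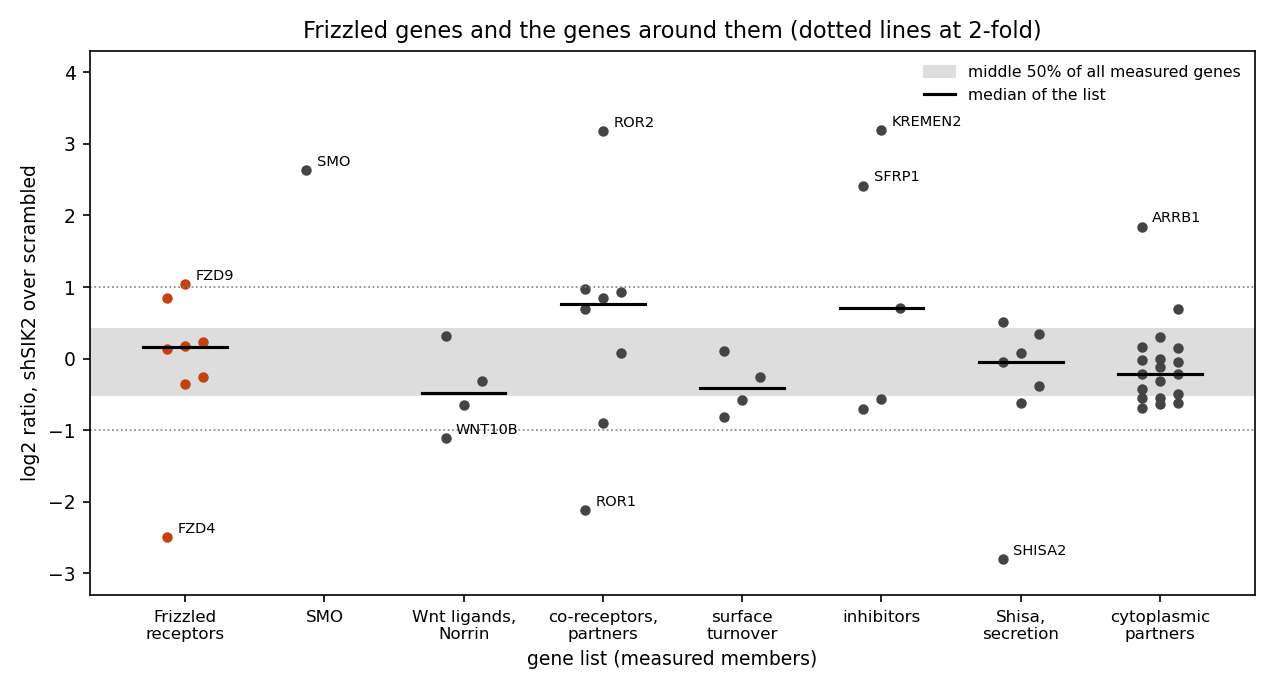
Log2 ratios of shSIK2 over scrambled for the measured members of each list, with the list medians as bars, the middle 50% of all measured genes as a grey band and dotted lines at 2-fold; genes beyond 2-fold are named. The Frizzled median of 0.16 lies within the band, and FZD4 and SHISA2 are the lowest points.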

How the data were processed

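Per the labels' protocols, RNA was extracted with Trizol and libraries followed a standard Illumina method; the sources used here give neither poly(A) selection nor strand. The submitters' processing notes name HISAT2 2.0.5 and the build hg18, but no counter. The authors deposited 1 FPKM value per gene and library, per the file headers, for 58735 Ensembl genes, all of which matched GENCODE release 29 (GRCh38), used for symbols, lengths and coordinates, although the notes name another build. FPKM times exon length gave whole multiples of 1 step, the same in both tables, for 100% of values above 0 (tolerance 0.001), taken as reads. The depth of each library is thus known, but FPKM as deposited is not scaled to it: equal totals add 0.14 to the log2 ratio of reads. With 0.1 FPKM added, the shift is smaller for low genes, as for FZD5, from 0.41 to 0.51.

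Log2 ratios are shSIK2 over scrambled, of FPKM plus 0.1, which understates low genes. A gene was measured at 1 FPKM or more in the higher library. Fold intervals are exact 95% intervals (Clopper-Pearson, conditional on the sum) of recovered reads, and those of shares use the delta method. Trends were removed as medians in 20 bins of GC content, then of exon length. Recovery, size rule, intervals and trend removal were tested on simulated data. The simulated reads were independent Poisson draws, with FPKM built from the same step and exon lengths. They check the code, not the error of real reads. Coding sequences were aligned with Biopython 1.88; the rest ran in Python 3.11.15 with scipy 1.17.1, pandas 2.3.3, numpy 2.4.6 and, for plots, matplotlib 3.10.9.

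The members, lists and rules were chosen with earlier results of these data known. Named were all members, list genes beyond 2-fold, the most abundant of each list, and genes overlapping a member; other list genes, neighbours and markers named were chosen after their values were seen. Overlapping genes with 33 reads or fewer in each library are left out. Protein sequences were not analysed here.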

Additional observations from a re-analysis of the deposited data

How the results depend on the processing

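No paired analysis was possible because each group holds 1 library. The count of Frizzled genes at least 2-fold higher (FZD9 as reported) was 0 with a pseudocount of 1, 0 with trends in GC content and exon length removed, 0 at a minimum of 5 FPKM, which leaves FZD9 out, and 2 at 1.5-fold (FZD8 and FZD9), beside 19.7% of all measured genes. The count lower was 1 (FZD4) under all 7 alternatives. The family median was -0.31 at a minimum of 5 FPKM, where fewer genes enter. As shares of reads, which grow with gene length, FZD2 held 14.7% in the shSIK2 library and 16.4% in the scrambled library, and FZD4 3.65% and 19.3%. At equal totals 3 of 8 measured co-receptors (ROR2, LRP5 and ADGRA2) were at least 2-fold higher, beside 13.4% of all measured genes. Of 4 measured ligands 0 were lower, beside 6.04%. With trends in GC content and exon length removed, the log2 ratios were 3.01 (ROR2), 1.01 (RECK), 0.57 (ADGRA2) and 0.53 (LRP5). With a pseudocount of 1, 0 of 4 ligands and 0 of 8 co-receptors were lower, beside 4.83% of all measured genes. Of 19 cytoplasmic partners 0 were higher, beside 5.91%. Of the log2 ratios of single members, 30 of 36 under an alternative stayed within the counting interval of the reads; FZD4 was -1.83 with a pseudocount of 1. No single member changed sign, while the family median turned from positive to negative at the minimum of 5 FPKM. With 58 and 26 reads (shSIK2, then scrambled), depth limits FZD9 most among the measured members.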

Other observations

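The protein-coding genes whose pair of values lay nearest to that of FZD4, by Euclidean distance in log2(FPKM + 0.1) over the 2 libraries, were SAMD9L, CYYR1 and FCAR, at distances of 0.12, 0.16 and 0.19. SAMD9L, an interferon-inducible gene, had 1.05 FPKM in the shSIK2 library and 5.69 FPKM in the scrambled library. CYYR1 had 1.02 FPKM in the shSIK2 library and 5.49 FPKM in the scrambled library, and FCAR, which encodes a receptor for immunoglobulin A, 1.01 and 7.04 FPKM. For FZD6 the nearest were STX12, DDX39A and GRK6, at distances of 0.013, 0.017 and 0.021. Likeness over 2 libraries is a match of levels only.

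Around FZD1, FZD2, FZD5 and FZD7 the 10 nearest measured genes had median log2 ratios of -0.32, 0.12, -0.57 and -0.44. FZD5, though below the minimum level, and FZD7 each had a higher ratio than all 10 of their neighbours, at 0.41 and 0.14. Neither rank was beyond counting error. The interval of FZD5 (-0.21 to 1.36) covered the ratio of KLF7 (0.02), and that of FZD7 (-0.12 to 0.40) the ratio of TMEM237 (-0.01). Around FZD3 and FZD6 the medians were 0.03 and -0.23.

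Among the ligand and inhibitor genes below 1 FPKM, WNT2B, KREMEN1 and NOTUM differed beyond counting error. WNT2B had 160 reads in the shSIK2 library and 62 in the scrambled library (2.58-fold, 1.91 to 3.52). KREMEN1 had 71 reads in the shSIK2 library and 21 in the scrambled library (3.38-fold, 2.05 to 5.79), and NOTUM had 38 and 18 in the same order. By log2 ratio WNT2B (1.12) and KREMEN1 (1.29) were past 2-fold higher and NOTUM (0.90) was not. With trends in GC content and exon length removed, the ratios were 1.31 (WNT2B), 1.22 (KREMEN1) and 0.31 (NOTUM). The 3 genes were picked after their values were seen. With no minimum level, 16.0% of all genes with reads were at least 2-fold higher and 10.5% lower. Those shares follow a rule of size, not of counting error.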
